A study of Mus musculus with 16 samples.

Results

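Basement membranes are thin extracellular sheets that underlie epithelia and wrap blood vessels, and the genes described here encode most of their framework. Collagen IV chains wind into trimers that join into a network, laminin trimers of an alpha, a beta and a gamma chain form a second network that binds cell surface receptors, and nidogens link the networks. In embryonic cortex, meningeal fibroblasts and the end-feet of radial glia meet at the pial basement membrane, and endothelial cells and pericytes share the basement membrane of each vessel. The 10 genes were *Col4a1*, *Col4a2*, *Col4a5*, *Col4a6*, *Lama1*, *Lama2*, *Lama4*, *Lamb1*, *Lamc1* and *Nid1*, of 51912 genes listed. They were chosen from measured values of the cKO versus ctrl comparison, in which *Col4a5* and *Col4a6* were among the genes called lower, so that comparison and cKO versus dKO, which uses the same cKO mice, are given as a description of the members. Calls in them are counted beside those of all genes, no p-value of a member is printed, and nothing is read from the counts.

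RNA was measured in E15.5 cerebral cortex of 15 mice by UMI RNA-seq, which counts deduplicated reads of ribosomal RNA-depleted total RNA. The 7 ctrl mice comprised 5 labelled wild type and 2 labelled heterozygous for *Knl1* (also named *Casc5*), which encodes a kinetochore scaffold protein. The 4 cKO mice carried a conditional deletion of *Knl1*, and the 4 dKO mice carried conditional deletions of *Knl1* and *Trp53*, which encodes p53. In both mutants the deletion was driven by *hGFAP-Cre*, which recombines in cortical neural progenitors and their progeny. The labels do not state whether ctrl mice carried *hGFAP-Cre* or floxed *Trp53*. Each mouse was a separate embryo, and the mice came from 4 litters and 3 batches. Batch 1 held 3 ctrl and 3 cKO mice, batch 2 was 1 ctrl mouse, and batch 3 comprised 3 ctrl mice, 1 cKO mouse and all 4 dKO mice.

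Totals ran from 399832 to 3266227 counts in ctrl, from 4178461 to 8800987 in cKO and from 552186 to 5396803 in dKO, so the ctrl values were the least precise. Before scaling between libraries, a gene with 3 counts stood at 7.50 counts per 1000000 (CPM) in the shallowest mouse and at 0.341 CPM in the deepest. This floor covers counting error only. *Knl1* stood at 62.8 ± 13.5 CPM (SD, n = 7) in ctrl, 58.2 ± 14.8 (n = 4) in cKO and 49.8 ± 11.6 (n = 4) in dKO. These counts cover the whole gene, including exons that the deletion leaves, so they do not check the labels. *Tbr1* and *Bcl11b*, transcription factor genes of deep-layer cortical neurons, were present in every mouse, at 149.4 to 219.8 CPM and 535 to 912 CPM. Ctrl mouse T3 and dKO mouse T8, littermates of batch 3, stood apart from the other mice. Their summed levels of 14 meningeal fibroblast markers were 156 and 139 CPM, against 8.29 to 62.1 CPM in the other 13 mice. Results that rest on these mice are given with and without them, a choice made after seeing the data.

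The members lie on 7 chromosomes, and the 4 collagen IV genes form 2 head-to-head pairs (GENCODE, GRCm38). *Col4a1* occupies chr8:11198423-11312826 on the minus strand and *Col4a2* occupies chr8:11312805-11449287 on the plus strand, so that their first exons overlap by 22 bases. *Col4a6* occupies chrX:141165403-141474076 on the minus strand and *Col4a5* occupies chrX:141475385-141689234 on the plus strand, with 1308 bases between their starts. That interval is shown because the pair it separates held the lowest fold changes of the members in cKO. The bases directly before each start are printed 5′ to 3′ on the strand of the gene, from RefSeq windows of GRCm38.p6, at chrX:141474077-141474326 (minus strand) for *Col4a6* and chrX:141475169-141475384 (plus strand) for *Col4a5*. Capitals mark matches to the motifs searched on both strands, namely the TATA box (TATAAA), the CAAT box (CCAAT) and the GC box (GGGCGG).
Col4a6: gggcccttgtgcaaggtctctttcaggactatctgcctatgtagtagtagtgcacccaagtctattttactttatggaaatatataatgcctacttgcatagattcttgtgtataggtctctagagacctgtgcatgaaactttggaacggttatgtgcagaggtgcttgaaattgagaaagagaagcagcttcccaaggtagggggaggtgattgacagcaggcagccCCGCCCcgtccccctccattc
Col4a5: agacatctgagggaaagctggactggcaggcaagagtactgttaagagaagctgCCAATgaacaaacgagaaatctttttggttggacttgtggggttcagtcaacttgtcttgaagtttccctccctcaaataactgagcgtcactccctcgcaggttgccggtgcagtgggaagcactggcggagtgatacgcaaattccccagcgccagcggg
The *Col4a6* stretch of 250 bases held 1 match to GGGCGG, on the opposite strand with its first base 21 bases before the end of the stretch, and none to the other motifs. The *Col4a5* stretch of 216 bases held 1 match to CCAAT and none to the others. Among 32851 RefSeq promoters, 32.7% held GGGCGG in the last 250 bases before the RefSeq start, and 30.8% held CCAAT in the last 216. The *Col4a5* stretch ends at its GENCODE start, which lies upstream of its RefSeq start. It therefore sits further from the RefSeq start than the 216 bases of the other promoters, and its comparisons are approximate. G and C made up 47.6% of the *Col4a6* stretch and 52.3% of the *Col4a5* stretch, against medians of 52.4% and 52.8% over all promoters at these lengths. The dinucleotide CG occurred 3 times before *Col4a6* and 8 times before *Col4a5*, against medians of 6 and 5. These matches describe the letters in the windows only.

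In ctrl cortex, the members fell into a high and a low range per length of transcript. *Col4a1*, *Col4a2* and *Lamc1* stood at 10.1 ± 4.07, 9.79 ± 3.23 and 9.43 ± 0.350 CPM per kilobase of exon (mean ± SD, n = 7), and did not differ beyond that spread. *Col4a1* and *Col4a2* encode the chains of the collagen IV trimer found in nearly all basement membranes, and *Lamc1* encodes the gamma chain of most laminins. *Col4a5* followed at 3.72 ± 1.29 CPM per kilobase, and each of the remaining members lay within 1 SD of its neighbours in the order except *Lama2*, which was below *Col4a6* by more than the SD of either. These were *Lama1* at 3.07 ± 0.662, *Nid1* at 3.06 ± 0.735, *Lamb1* at 2.92 ± 0.835, *Lama4* at 2.17 ± 0.932, *Col4a6* at 1.66 ± 0.557 and *Lama2* at 1.00 ± 0.262. Per kilobase of the longest transcript, *Lamb1* and *Lama4* moved up to 5.01 ± 1.43 and 4.33 ± 1.86, above *Col4a5* at 3.83 ± 1.32. *Col4a6* rested on 4 to 46 counts per mouse, whereas *Lamc1* had 33 to 674. Among ctrl mice, every mouse of batch 3 was above every mouse of batches 1 and 2 for 4 members, *Col4a1*, *Col4a2*, *Col4a5* and *Nid1*. The share of all genes separated in this way was not computed, so nothing is read from that count. The ctrl mice of batch 3 all came from litter 3 and included both heterozygous ctrl mice. Batch and litter therefore cannot be told apart here. The remaining ctrl mouse of batch 3, T3, was labelled wild type. It stood at 140.1, 112, 35.0 and 28.0 CPM for *Col4a1*, *Col4a2*, *Col4a5* and *Nid1*. The part of the *Knl1* label was not tested.

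*Col4a5* and *Col4a6* were lower in cKO than in ctrl cortex, whereas *Col4a1* and *Col4a2* differed little. *Col4a5* stood at 9.14, 6.75, 14.3 and 10.9 CPM in the 4 cKO mice and at 15.1 (lowest), 20.3 (median) and 35.8 CPM (highest) in the 7 ctrl mice. The cKO and ctrl mice thus did not overlap, although the gap between the highest cKO and the lowest ctrl mouse was under 1 CPM and the lowest ctrl value rested on 9 counts. The fitted log2 fold change in CPM was −1.19 ± 0.25 (SE), or 0.438 of the ctrl level. *Col4a6* stood at 3.86, 5.00, 5.23 and 4.09 CPM in cKO, and in ctrl at 4.89 (lowest), 13.3 (median) and 18.7 CPM (highest). The 6 other ctrl mice were at 11.7 CPM or more, and only ctrl mouse S1, with 9 counts, overlapped the cKO mice. The log2 fold change was −1.40 ± 0.28, or 0.379 of the ctrl level. The chains of *Col4a5* and *Col4a6* assemble into collagen IV trimers of a narrower set of basement membranes than those of *Col4a1* and *Col4a2*.

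**Figure D1:**
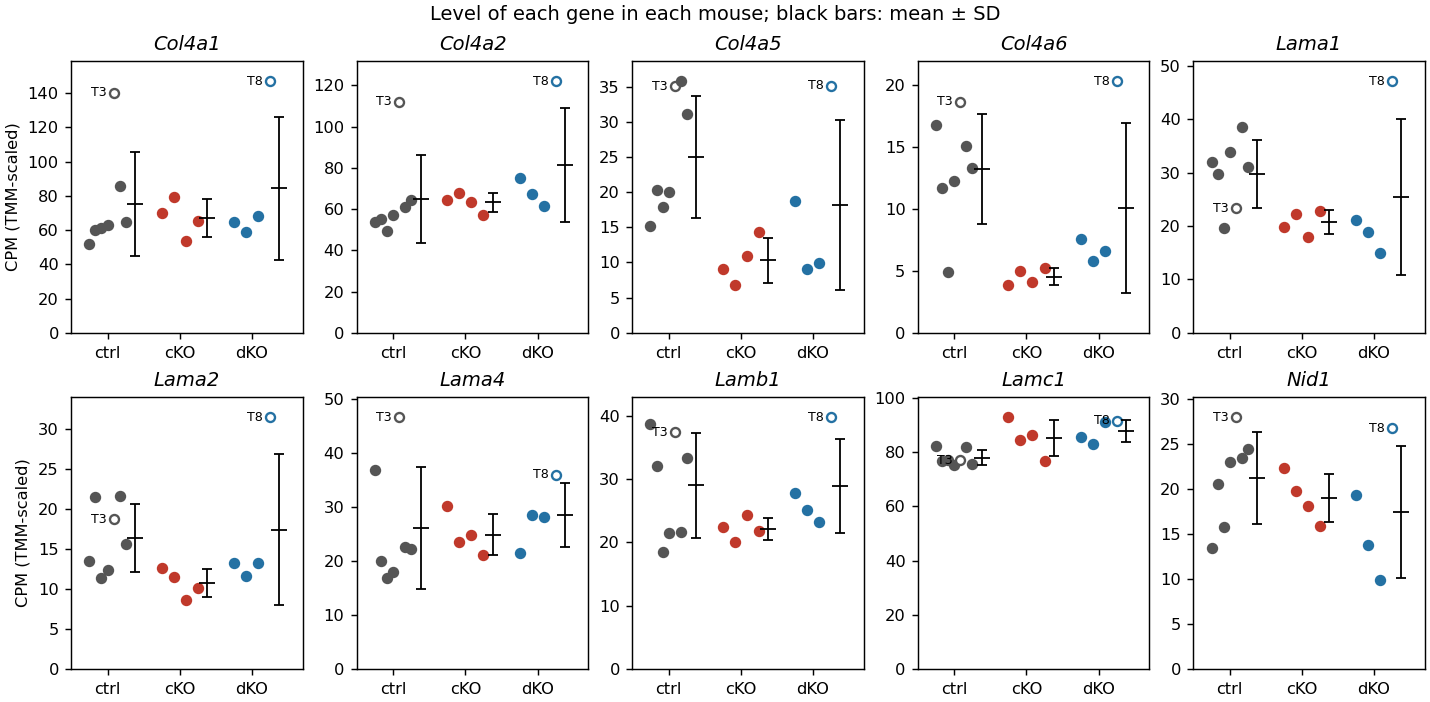
CPM (TMM-scaled) of each of the 10 genes, with 1 point per mouse for ctrl (grey), cKO (red) and dKO (blue) and the mean ± SD as black bars; ctrl mouse T3 and dKO mouse T8 are open and named. *Col4a5* is at 6.75 to 14.3 CPM in cKO against 15.1 to 35.8 CPM in ctrl, and mouse T8 is the highest dKO mouse in all 10 panels.

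*Col4a1* stood at 69.9, 79.5, 65.5 and 53.4 CPM in cKO against a ctrl median of 63.0 and range of 52.1 to 140.1 CPM, with a log2 fold change of −0.13 ± 0.18. *Col4a2* stood at 64.2, 68.0, 57.3 and 63.4 CPM in cKO against a ctrl median of 57.4 and range of 49.4 to 112 CPM, with a log2 fold change of 0.03 ± 0.15. For both genes all 4 cKO mice lay inside the ctrl range. Within a mouse, the counts of *Col4a5* and *Col4a6* together were 9.70%, 7.97%, 15.9% and 12.8% of those of *Col4a1* and *Col4a2* in cKO. In ctrl they were 20.6% (lowest), 27.7% (median) and 34.6% (highest), so that no cKO mouse reached the ctrl range. This ratio uses no scaling between libraries, and in mouse T3, where all 4 genes were high, it was 21.3%.

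**Figure D2:**
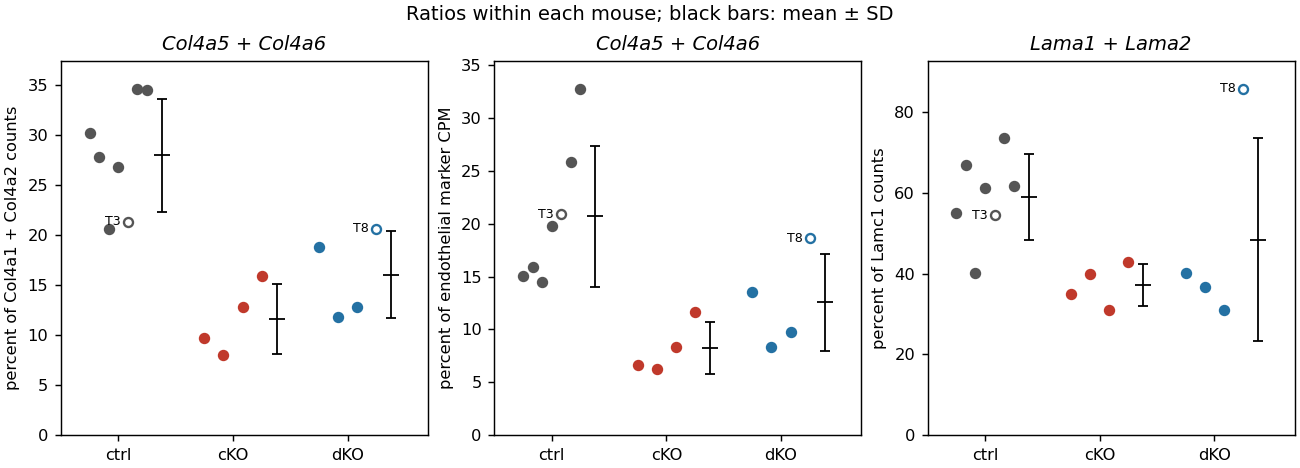
Ratios within each mouse, in percent: *Col4a5* plus *Col4a6* counts over *Col4a1* plus *Col4a2* counts (left), *Col4a5* plus *Col4a6* over the summed endothelial marker CPM (middle), and *Lama1* plus *Lama2* counts over *Lamc1* counts (right). Points are mice and black bars mean ± SD; the left ratio is 7.97% to 15.9% in cKO, 20.6% to 34.6% in ctrl and 11.8% to 20.6% in dKO.

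Among the laminins, the alpha chain genes differed from each other. *Lama1*, which encodes an alpha chain of the early embryonic and pial basement membrane, stood at 19.9, 22.3, 22.8 and 18.0 CPM in cKO, against 19.5 (lowest), 31.1 (median) and 38.6 CPM (highest) in ctrl. *Lama2*, whose chain is abundant around muscle and brain vessels, stood at 12.6, 11.5, 10.1 and 8.64 CPM in cKO, against 11.4, 15.6 and 21.6 CPM in ctrl. In both genes the groups overlapped, and the log2 fold changes were −0.53 ± 0.18 and −0.63 ± 0.23. *Lama4*, which encodes an endothelial alpha chain, had a log2 fold change of 0.08 ± 0.21, with 21.2 to 30.3 CPM in cKO and 16.8 to 46.7 CPM in ctrl. *Lamb1*, a beta chain gene, had −0.31 ± 0.19, with 20.004 to 24.3 CPM in cKO and 18.5 to 38.6 CPM in ctrl. *Lamc1* had 0.11 ± 0.12, with 76.7 to 92.8 CPM in cKO and 75.3 to 82.3 CPM in ctrl. *Nid1*, the nidogen gene, had −0.14 ± 0.19, with 15.9 to 22.3 CPM in cKO and 13.4 to 28.0 CPM in ctrl. The counts of *Lama1* and *Lama2* together were 30.9% to 42.9% of those of *Lamc1* in cKO and 40.1% to 73.6% in ctrl.

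At a false discovery rate (FDR) under 0.05 over all listed genes (edgeR likelihood ratio test), 2 of 10 members, *Col4a5* and *Col4a6*, were called lower in cKO, beside 0.391% of the 10992 genes that passed edgeR's filterByExpr, a minimum on counts that all 10 members passed. At an unadjusted p under 0.05, 4 of 10 were lower and none higher, beside 3.82% of all genes lower and 6.63% higher. For 1 of 10, *Col4a5*, the cKO mice were all below the ctrl mice, beside 0.337% of all genes. The median log2 fold change of the members was −0.23, beside 0.04 for all genes that passed the filter. The calls depended on single mice and on the choice of controls: 0 members were called without cKO mouse 5 and with wild-type ctrl mice only, and 1 without cKO mouse 7, while *Col4a5* kept a log2 fold change of −1.13, −0.95 and −1.02, and *Col4a6* one of −1.33, −1.30 and −1.42. Within batch 1 the log2 fold changes were −0.87 for *Col4a5* and −1.40 for *Col4a6*, and with litter as a covariate −0.83 and −1.18, with *Col4a6* alone called in each.

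Within the litters that held both groups, *Col4a5* was lower in every cKO mouse than in its ctrl littermates. In litter 1, *Col4a6* was at 16.8 and 11.7 CPM in the ctrl mice and at 3.86 and 5.00 CPM in the cKO mice, and *Col4a5* was at 15.1 and 20.3 CPM against 9.14 and 6.75 CPM. In litter 2, *Col4a5* was at 19.98 and 17.9 CPM in ctrl and 14.3 CPM in cKO, but *Col4a6* was at 12.3 and 4.89 CPM in ctrl and 5.23 CPM in cKO. Litter 2 thus had the ctrl mouse that overlapped the cKO mice. The only cKO mouse of litter 4, F3, had no ctrl littermate and stood at 10.9 CPM for *Col4a5*, against 31.1 to 35.8 CPM in the ctrl mice of its batch. *Col4a5* and *Col4a6* are X-linked, and with sex as a covariate the log2 fold changes were −1.20 and −1.42.

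In dKO cortex, no member was called against ctrl (edgeR likelihood ratio test, FDR = 1 for each of the 10), beside 0.0501% of all listed genes called in either direction. Of the 9638 genes that passed the filter, as all 10 members did, 1 was called lower and 9 higher. The quasi-likelihood test and DESeq2 also called 0 members. The ctrl mice are those of the cKO comparison, whereas the dKO mice had no part in the choice of members. *Col4a5* stood at 9.95, 35.1, 18.7 and 9.12 CPM in dKO mice T2, T8, F1 and F7, and *Col4a6* at 6.63, 20.3, 7.55 and 5.82 CPM. Mouse T8 was within the upper ctrl values of *Col4a5* and above all ctrl mice in *Col4a6*, whereas T2 and F7 were below every ctrl mouse in *Col4a5*. The log2 fold changes were −0.43 ± 0.31 (95% interval −1.04 to 0.18) and −0.39 ± 0.36 (−1.10 to 0.33), and both intervals include 0.

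These values moved with dKO mouse T8 and with the ctrl mice used. Without mouse T8 the log2 fold changes were −0.86 for *Col4a5* and −0.87 for *Col4a6*, and without mice T3 and T8 −0.80 and −0.81, none of them called. Within batch 3, which held 3 ctrl and all 4 dKO mice, they were −0.96 and −0.74. In litter 3, dKO mouse T2 was at 9.95 CPM for *Col4a5* and its dKO littermate T8 at 35.1 CPM, with ctrl littermates at 31.1 to 35.8 CPM. The counts of *Col4a5* and *Col4a6* together were 12.8%, 20.6%, 18.8% and 11.8% of those of *Col4a1* and *Col4a2* in T2, T8, F1 and F7, so that mouse T8 alone reached the lowest ctrl value of 20.6%.

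The other members showed no call in dKO either. At an unadjusted p under 0.05, 1 of 10 was higher, beside 3.31% of all genes, and 0 of 10 were lower, beside 2.42%. The member was *Col4a2*, at 61.3, 122, 75.2 and 67.5 CPM against a ctrl median of 57.4 CPM (log2 fold change 0.39 ± 0.19, edgeR FDR = 1). Its dKO mice lay inside the ctrl range of 49.4 to 112 CPM except T8. *Col4a1* stood at 68.0, 147, 64.6 and 58.8 CPM (0.20 ± 0.23), again with T8 alone outside the ctrl range. *Lama1* stood at 14.9, 47.1, 21.1 and 18.8 CPM and *Lama2* at 13.3, 31.4, 13.3 and 11.6 CPM, with log2 fold changes of −0.25 ± 0.26 and 0.02 ± 0.30. Without T8, the log2 fold change of *Lama1* was −0.63 and that of *Lama2* was −0.39, neither called. *Lamc1* was at 91.2, 91.5, 85.4 and 83.0 CPM, every dKO mouse above every ctrl mouse, but by a log2 fold change of only 0.16 ± 0.13. Such a separation held for 1 of 10 members, beside 29 of the 9638 genes that passed the filter. *Lama4*, *Lamb1* and *Nid1* had 0.25 ± 0.24, 0.07 ± 0.22 and −0.24 ± 0.25. The median log2 fold change of the members was 0.05, beside 0.01 for all genes that passed the filter.

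**Figure D3:**
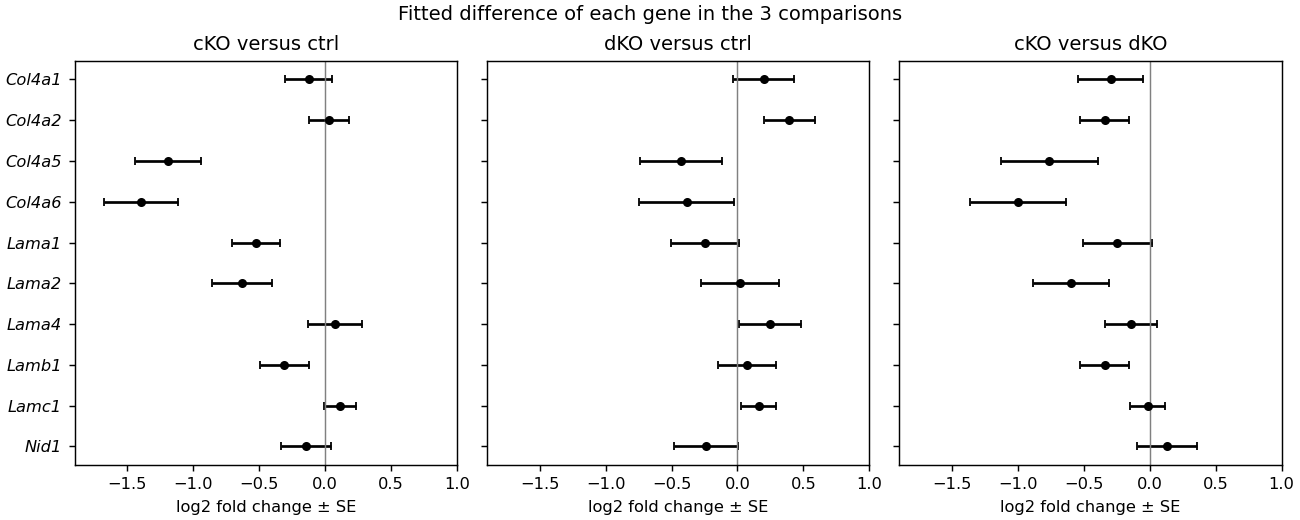
Log2 fold change (horizontal axis, point ± SE from the edgeR fit) of each gene for cKO against ctrl, dKO against ctrl, and cKO against dKO, from left to right. *Col4a5* and *Col4a6* lie at −1.19 and −1.40 in cKO versus ctrl and at −0.43 and −0.39 in dKO versus ctrl; the comparisons share mice.

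Directly between the mutants, 0 members were called (edgeR likelihood ratio test, and also by its quasi-likelihood test and DESeq2), beside 0.052% of all listed genes in either direction. Of the 12484 genes that passed the filter, as all 10 members did, 5 were called lower in cKO and 8 higher. At an unadjusted p under 0.05, 3 of 10 members were lower in cKO than in dKO, beside 1.53% of the genes that passed the filter. These members were *Col4a5*, *Col4a6* and *Lama2*. *Col4a6* was the 1 member with every cKO mouse below every dKO mouse, at 3.86 to 5.23 CPM against 5.82 to 20.3 CPM, beside 1.07% of all genes. The log2 fold changes were −0.76 ± 0.37 for *Col4a5*, −1.002 ± 0.37 for *Col4a6* and −0.60 ± 0.29 for *Lama2*. Without mouse T8 they were −0.30, −0.50 and −0.21, each nearer to 0. The median of the members was −0.32, beside 0.05 for all genes that passed the filter.

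Mice T3 and T8 were high in most members and in the markers of meningeal tissue. Mouse T8 was the highest dKO mouse for all 10 members, T3 the highest ctrl mouse for 5, and 1 or the other was the highest of all 15 mice for 8 of the 10 and for 11 of 14 meningeal fibroblast markers. *Col4a1* reached 140.1 CPM in T3 and 147 CPM in T8, against 85.6 CPM or less in the other mice. In bulk RNA, more cells of a type and more RNA per cell cannot be told apart.

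Meningeal fibroblast markers were sparse and overlapped between the groups. Their summed level was 12.8 to 156 CPM in ctrl, 17.0 to 25.2 CPM in cKO and 8.29 to 139 CPM in dKO. The most abundant were *Islr*, *Col3a1*, a fibrillar collagen gene, and *Foxc1*, a transcription factor gene of the meninges, at means of 9.85, 7.46 and 4.21 CPM over 15 mice, and no marker was at 0 in every mouse, although 12 of the 14 were at 0 counts in dKO mouse T2. In cKO versus ctrl 5 of 14 were lower at an unadjusted p under 0.05. Of the genes that passed filterByExpr 3.82% were lower, but only 1 of the 14 passed. The count and the share therefore cover unlike genes. *Aldh1a2*, which encodes a retinoic acid-synthesizing enzyme of the meninges, was called lower (edgeR FDR = 0.041), at 0 to 0.227 CPM in cKO and 0 to 9.34 CPM in ctrl. Over all 14, 10 had lower values in cKO and the median log2 fold change was −1.58, with −2.43 for *Col3a1*, −0.34 for *Foxc1* and 0.24 for *Islr*, the 1 marker that passed filterByExpr. With the log2 summed level of this list as a covariate, *Col4a5* and *Col4a6* had log2 fold changes of −1.003 and −1.27 in cKO versus ctrl. Without ctrl mouse T3, and with no covariate, the log2 fold changes were −1.10 and −1.31. The members were chosen on this contrast, so these values are a description, and the part of meningeal tissue in them was not tested. In dKO versus ctrl the summed meningeal level as a covariate gave −0.58 and −0.56, with no call.

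**Figure D4:**
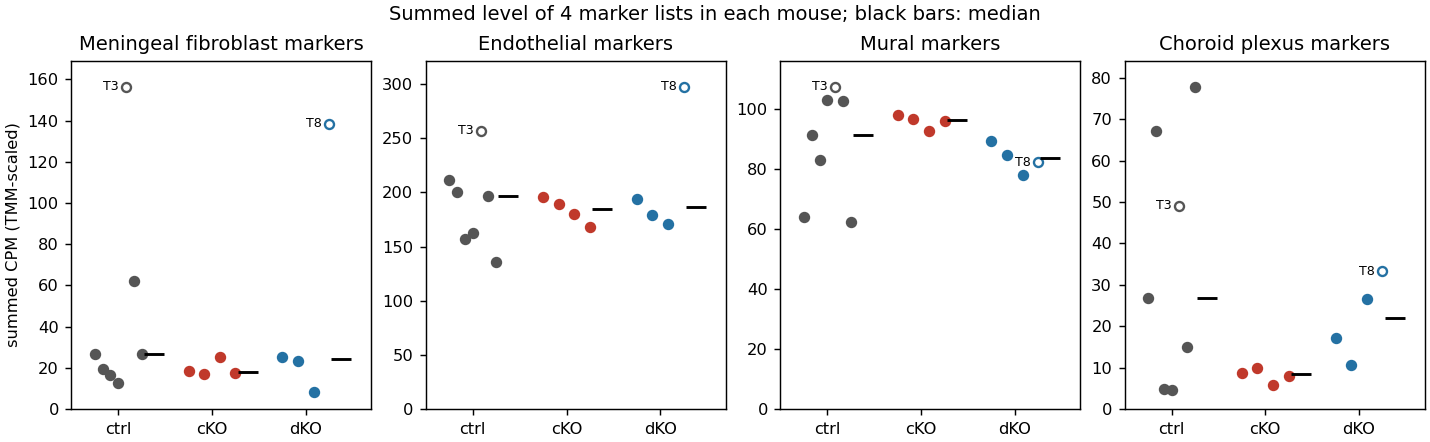
Summed CPM of the meningeal fibroblast (14 genes), endothelial (21), mural (13) and choroid plexus (6) marker lists, with 1 point per mouse and the median as a black bar; T3 and T8 are open and named. Meningeal markers reach 156 CPM in T3 and 139 CPM in T8, and choroid plexus markers are at 5.68 to 10.002 CPM in cKO.

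Vascular markers overlapped between the groups as well. The 21 endothelial markers, led by *Slc2a1*, the glucose transporter gene of the blood-brain barrier, and the VEGF receptor genes *Flt1* and *Kdr*, summed to 136 to 257 CPM in ctrl, 168 to 195 CPM in cKO and 171 to 298 CPM in dKO. In cKO versus ctrl the 12 of 21 that passed the filter had a median log2 fold change of 0.01. At an unadjusted p under 0.05, 3 of all 21 were lower, beside 3.82% of the genes that passed the filter. *Slco1a4*, an organic anion transporter gene, was called lower (edgeR FDR = 0.0097), at 0 counts in all 4 cKO mice and at 0 to 6.67 CPM in ctrl. The 0 counts allow up to 0.341 to 0.718 CPM in each cKO mouse, before scaling between libraries. With the log2 endothelial level as a covariate, *Col4a5* and *Col4a6* had log2 fold changes of −1.19 and −1.36 in cKO versus ctrl, which is again a description, and the part of vascular tissue was not tested. *Col4a5* and *Col4a6* together were 6.22% to 11.7% of the summed endothelial level in cKO, 14.5% to 32.8% in ctrl and 8.35% to 18.6% in dKO. The 13 mural markers were led by *Notch3*, *Rgs5* and *Abcc9*, which mark pericytes and smooth muscle. They summed to 62.2 to 107 CPM in ctrl, 92.7 to 97.9 CPM in cKO and 77.9 to 89.4 CPM in dKO, with 0 of 13 called. In cKO versus ctrl 3 of 13 were higher at an unadjusted p under 0.05. That stands beside 6.63% of the genes that passed the filter, as 5 of the 13 did.

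Choroid plexus markers, from tissue at the medial edge of the cortex, had a lower median in cKO, 8.41 CPM, than in ctrl, 26.9 CPM, or dKO, 21.9 CPM, with overlapping ranges. The 6 markers summed to 4.61 to 77.8 CPM in ctrl, 5.68 to 10.002 CPM in cKO and 10.7 to 33.3 CPM in dKO. *Ttr*, the transthyretin gene of choroid plexus epithelium, was called lower in cKO than in ctrl (log2 fold change −5.61, edgeR FDR = 0.0065) and than in dKO (−5.02, edgeR FDR = 0.0004). It was at 0 in ctrl mice 2, S3 and S1 and reached 53.2 CPM in ctrl mouse 6, so the groups overlapped. Its range was 0 to 1.00 CPM in cKO and 1.16 to 24.9 CPM in dKO. In cKO versus ctrl it did not pass filterByExpr. *Enpp2* and *Clic6*, the next most abundant, had log2 fold changes of −0.50 and −1.99 in cKO versus ctrl and were not called. The part of choroid plexus tissue in the levels of the members was not tested.

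Summed markers of radial glia, the progenitors in which *hGFAP-Cre* recombines, overlapped between the groups. The 11 markers summed to 1219 to 1755 CPM in ctrl, 1315 to 1408 CPM in cKO and 1145 to 1343 CPM in dKO. *Ptprz1*, *Vim* and *Nes* were the most abundant, and *Ptprz1*, at a mean of 677 CPM over 15 mice, weighed most in the sum. *Sox2* was listed at 0 in all 15 mice. The paper reports SOX2-positive cells in this cortex by immunostaining, so that value is not read as absence. By cell counts at E15.5, it reports significantly fewer of them in cKO than in ctrl, and no significant decrease in dKO. In cKO versus ctrl 4 of 11 were lower at an unadjusted p under 0.05, beside 3.82% of the genes that passed the filter, and 0 were called. Of the 10 with a count, 8 had lower values in cKO, and *Ptprz1* had a log2 fold change of 0.11. The median of the 8 that passed the filter was −0.22. The 7 red blood cell markers, led by the globin genes *Hba-a1*, *Hba-a2* and *Hbb-bs*, summed to 10.4 to 26.1 CPM in ctrl, 18.0 to 28.9 CPM in cKO and 24.9 to 31.4 CPM in dKO. *Hba-a2*, which has a near-identical copy, was called higher in dKO than in ctrl (log2 fold change 1.98, edgeR FDR = 0.02). The 12 microglia and macrophage markers, led by *Cx3cr1*, *Csf1r* and *Mrc1*, summed to 11.4 to 39.7, 17.0 to 38.4 and 24.5 to 29.8 CPM in ctrl, cKO and dKO, and 0 were called. At an unadjusted p under 0.05, 2 of 12 were higher in cKO than in ctrl. That stands beside 6.63% of the genes that passed the filter, as 2 of the 12 did. In dKO versus ctrl 2 of 12 were higher, beside 3.31% of the genes that passed the filter, as 0 of the 12 did. The part of these cells in the levels of the members was not tested.

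Most other genes of the basement membrane were not called, beside 0.391% of the genes that passed the filter called lower in cKO versus ctrl. Of 23 further structural genes, 0 were called in any comparison. In cKO versus ctrl 3 of 23 were lower and 1 higher at an unadjusted p under 0.05 (edgeR). That stands beside 3.82% and 6.63% of the genes that passed the filter. The median log2 fold change of the 14 that passed the filter was −0.29. *Agrn*, the most abundant, encodes the proteoglycan agrin and had 0.01 in cKO and 0.09 in dKO, each against ctrl. *Fras1*, whose product links epithelium to the matrix, had −0.61 in cKO (edgeR FDR = 0.077) and −0.45 in dKO (edgeR FDR = 0.77), and *Smoc1* had −0.09 and −0.08. Of 12 receptor genes, 2 were lower and 1 higher in cKO than in ctrl at an unadjusted p under 0.05 (edgeR). For 1 of the 12, every cKO mouse lay below every ctrl mouse, beside 0.337% of the genes that passed the filter. Of these receptor genes, *Cd44*, the hyaluronan receptor gene, was called higher in cKO (log2 fold change 2.95, edgeR FDR = 0.035) and in dKO (3.69, edgeR FDR = 0.00015). Its level rested on cKO mouse F3, at 145 CPM, and dKO mouse F1, at 241 CPM, both of litter 4. The other 13 mice were at 13.0 CPM or less, including dKO mouse F7 of the same litter at 13.0 CPM. *Itgb1*, the integrin beta subunit gene of most laminin and collagen receptors, had −0.18 and −0.08, and *Dag1*, the dystroglycan gene, had −0.02 and 0.17. The collagen receptor gene *Ddr1* had −0.33 and −0.26, and none of these 3 was called.

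Of 14 genes for collagen assembly and crosslinking, 0 were called in any comparison. In cKO versus ctrl 2 of 14 were lower and 0 higher at an unadjusted p under 0.05 (edgeR). That stands beside 3.82% and 6.63% of the genes that passed the filter, as 10 of the 14 did. *Pxdn*, the peroxidasin gene whose product crosslinks collagen IV, had log2 fold changes of −0.05 in cKO and 0.00 in dKO. *Mia3*, needed for export of large collagens, had 0.05 and 0.01, and *P4hb*, a subunit of prolyl hydroxylase, had −0.18 and 0.10. Of 9 turnover genes, 2 were lower and 0 higher in cKO than in ctrl at an unadjusted p under 0.05 (edgeR). *Adamts9*, a secreted protease gene, was called lower in cKO than in ctrl (log2 fold change −0.98, edgeR FDR = 0.0044). It stood at 10.8, 9.75, 10.8 and 11.1 CPM in cKO, below the 13.4 to 26.1 CPM of every ctrl mouse, and at 14.9, 29.6, 12.4 and 15.9 CPM in dKO mice T2, T8, F1 and F7 (−0.25 against ctrl, edgeR FDR = 1). *Mmp14*, a membrane-bound protease gene, had −0.53 in cKO (edgeR FDR = 0.56), while *Timp2* and *Mmp15* had 0.14 and −0.05.

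**Figure D5:**
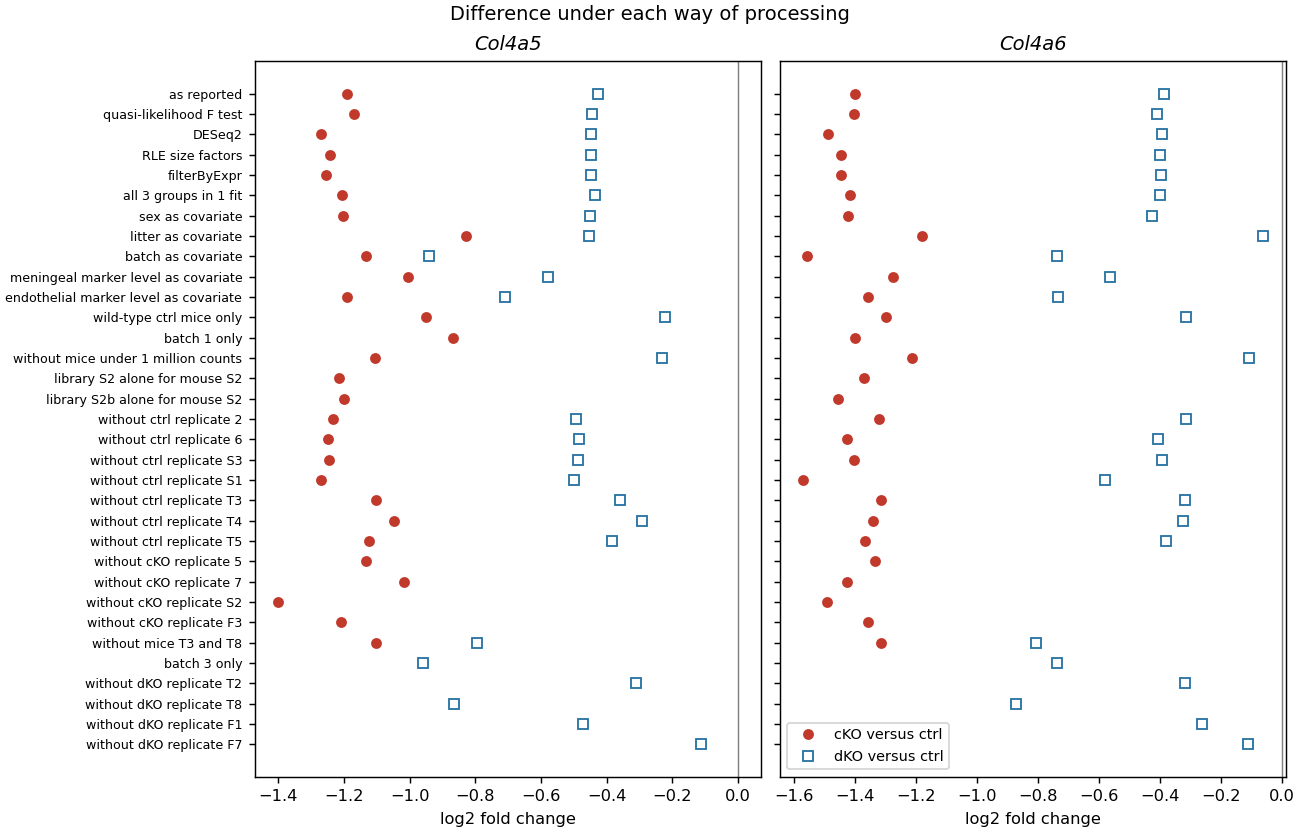
Log2 fold change of *Col4a5* (left) and *Col4a6* (right) in cKO versus ctrl (red circles) and dKO versus ctrl (blue squares) under each way of processing or set of mice, 1 per line. The values stay between −1.40 and −0.83 and between −1.57 and −1.18 in cKO, and between −0.96 and −0.11 and between −0.87 and −0.06 in dKO.

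Over the 27 other ways of processing or sets of mice, *Col4a5* ranged from −1.40 to −0.83 in cKO versus ctrl, and *Col4a6* from −1.57 to −1.18. In dKO versus ctrl, over 25 such alternatives, *Col4a5* ranged from −0.96 to −0.11 and *Col4a6* from −0.87 to −0.06, with 0 calls. The plot of both genes by setting shows that the dKO values spread more than the cKO values, with the values nearest to those of cKO found within batch 3, with batch as a covariate, and without mouse T8.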

How the data were processed

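RNA of microdissected E15.5 cortex was sequenced by UMI Click-seq after removal of ribosomal RNA. The counts the authors deposited are integer read numbers for each gene after removal of PCR copies, and were not normalized. Per the labels and the methods, the authors used bcl2fastq 2.17, cutadapt 1.13, STAR 2.5.2a on mm10, UMI-tools 0.5.3 and HTSeq 0.6.1p1, and edgeR 3.18.1 for tests. The strand setting of HTSeq is not given in the sources used here. The 5 summary lines of each library, 21.6% to 38.7% of its counts, were left out. Identifiers were matched to GENCODE vM21 (51719 of 51912). Libraries S2 and S2b of 1 cKO mouse differed far less (chi-square per degree of freedom 1.14) than libraries of different cKO mice (3.56 to 27.4), and their counts were summed.

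Each comparison used only the mice of the groups compared (R 4.3.3, edgeR 4.0.16, TMM, glmFit, likelihood ratio test, no covariate), with Benjamini-Hochberg FDR over all listed genes and calls at FDR under 0.05. P-values weigh the difference between groups against the spread between mice. Litter and batch were not in these fits, so differences between them can enter the difference between groups. A share of all genes beside a count at an unadjusted p, or of non-overlapping mice, covers genes that passed filterByExpr in that comparison. DESeq2 1.42.0 and the quasi-likelihood test were alternatives. CPM values were TMM-scaled over 15 mice, and the level of a marker list is its summed CPM. The 95% intervals are the log2 fold change ± 1.96 SE. The members and lists were chosen with earlier results of these data known. Named genes are the 10 members and, of each list, the called genes, the 3 with the highest mean CPM and markers at 0 in every mouse. The summed cortical marker list is not reported here. The closing section gives the effect of other tests, scalings, filters, covariates and subsets of mice.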

Additional observations from a re-analysis of the deposited data

Results flagged for a closer look

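Within each group, the highest and the lowest mouse were compared with the rest by Dixon's test, for the 10 members and 8 marker lists, 54 groups of values in all. Chance flags about 1 in 20 such groups, and 8 values stood apart, 4 of them in dKO mouse T8 and 3 in ctrl mouse T3. Mouse T8 was high for *Col4a1* at 147 CPM (58.8 to 68.0 in the other dKO mice), *Col4a6* at 20.3 CPM (5.82 to 7.55), *Lama2* at 31.4 CPM (11.6 to 13.3) and the summed meningeal fibroblast markers at 139 CPM (8.29 to 25.4). Mouse T3 was high for *Col4a1* at 140.1 CPM (52.1 to 85.6 in the other ctrl mice), *Col4a2* at 112 CPM (49.4 to 64.5) and the summed meningeal fibroblast markers at 156 CPM (12.8 to 62.1). Ctrl mouse 6 was high for the summed radial glia markers at 1755 CPM (1219 to 1387). The cKO group held no such mouse for any member or list.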

How the results depend on the processing

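The number of members called in cKO versus ctrl, 2, held in 20 of 27 alternatives. It was 1 with all 3 groups in 1 fit, with litter as a covariate, in batch 1 alone and without mice under 1000000 counts, and 0 with wild-type ctrl mice only. Leaving out 1 mouse at a time gave 0 to 2. In dKO versus ctrl (25 alternatives) and cKO versus dKO (22), the number stayed at 0, including the 11 and 8 runs that left out 1 mouse.

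In dKO versus ctrl, members with log2 fold changes near 0 changed sign 27 times. *Lama2* (0.02) became −0.013 with the quasi-likelihood test, −0.00245 with all groups in 1 fit, −0.031 with sex, −0.21 with batch, −0.13 with the meningeal level and −0.29 with the endothelial level as a covariate, −0.22 in batch 3 alone and −0.37 without mice T3 and T8. Leaving out 1 mouse gave −0.39 to 0.22. *Col4a1* (0.20) became −0.19 with batch and −0.068 with the endothelial level as a covariate, −0.21 in batch 3 alone and −0.036 without mice T3 and T8, and −0.19 to 0.37 leaving out 1 mouse. *Lamb1* (0.07) became −0.014, −0.057, −0.030 and −0.029 in the same 4 runs, and −0.077 to 0.17 leaving out 1 mouse. *Lama4* (0.25) became −0.050 with batch as a covariate and −0.065 in batch 3 alone, and *Lama1* (−0.25) became 0.062 with litter as a covariate. The causes were not tested. RLE size factors moved the median of all genes by under 0.1 on the log2 scale. Mouse numbers are not shared between groups, and the fits with litter as a covariate are the blocked ones. Depth limits the ctrl values: 3 of 7 ctrl mice and 1 of 4 dKO mice had under 1000000 counts.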
